A study of Mus musculus with 13 samples.

Results

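CpG methylation was examined across the loci of 4 pluripotency genes, Esrrb, Sall4, Utf1 and Lin28a, in 13 mouse reduced representation bisulfite sequencing (RRBS) libraries. RRBS reads the CpG-rich fraction of the genome, and after bisulfite treatment an unmethylated cytosine is read as thymine while a methylated one is still read as cytosine. The members were all CpGs in fixed mm9 intervals of 180 kb at Esrrb, 40 kb at Sall4, 20 kb at Utf1 and 35 kb at Lin28a. No measured level set the bounds of the intervals, but the members were chosen with earlier results of these data known. The read CpGs ran over chr12:87690533-87869083 for Esrrb, chr2:168560293-168597949 for Sall4, chr7:147120387-147137277 for Utf1 and chr4:133552189-133584853 for Lin28a. They comprised 1307 CpGs with a read in at least 1 library, of which 505 lay in the Esrrb interval, 475 in Sall4, 170 in Utf1 and 157 in Lin28a. Methylated and total CpG reads were summed over 1 kb tiles, and the methylation level of a tile is the methylated share of its reads, in percent. A sequenced read counts once at each CpG it covers, and the read numbers given here are such CpG reads. The intervals held 155 of the 564175 tiles with reads genome-wide. Of these, 23 had at least 20 reads in every library and were tested together with all 42837 such tiles of the genome, 9 in Esrrb, 7 in Sall4, 4 in Utf1 and 3 in Lin28a. At a minimum of 10 reads, 46 tiles could be described.

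The libraries fell into 6 groups. Induced pluripotent stem cells (iPSCs), which are somatic cells returned to a pluripotent state, were female and labelled XaXa, with both X chromosomes active (2 libraries), female and labelled XO, with a single X chromosome (4 libraries), or male, called XY here (3 libraries). Male cells taken during reprogramming and sorted as positive or as negative for SSEA1, an antigen on the surface of pluripotent mouse cells, gave 1 library each. Male mouse embryonic fibroblasts (MEFs), which stand here for the starting cell type, gave 2 libraries. By these labels the female XaXa and XO iPSCs did not come from male MEFs. Their differences from MEFs therefore also cross sex and origin of the cells, which cannot be told apart from reprogramming. The iPSCs were depleted of feeder cells before DNA isolation, and the strain, the age of the embryos and the reprogramming agents were not given in the sources used here. Nothing in the labels states which libraries came from separate lines or cultures, so each p-value reflects the variation among these libraries alone, and that variation may be partly technical.

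Depth differed widely, with 4784488 to 143148634 CpG reads per library. The Esrrb interval received 838 to 25337 reads per library, Sall4 517 to 17307, Utf1 256 to 8339 and Lin28a 267 to 5491, and XO 9 was the shallowest library at every locus. Some libraries went against their labels. Read depth on the X chromosome, relative to the XY libraries, was 1.34 and 1.5 in the XaXa libraries, but also 1.29, 1.20 and 1.36 in the libraries labelled XO 3, XO 5 and XO 9, against 1.04 in XO 6. It was 1.25 in the library labelled MEF 5, with 0.0219% as many reads on the Y chromosome as on the autosomes, against 0.960 and 0.0913% in MEF 4. Counts of called tiles and gene means are therefore given with and without these libraries, and a called tile is given without them where its call was lost. Over the 41593 tested autosomal tiles, the mean level was 30.8% and 24.8% in the XaXa libraries, 41.7% to 48.2% in XO, 42.8% to 46.1% in XY, 52.0% in SSEA1-positive cells, 52.8% in SSEA1-negative cells, and 52.5% and 54.2% in MEFs. The 4 genes are read against this background.

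Esrrb is an orphan nuclear receptor that acts beside Oct4, Sox2 and Nanog in the network that sustains naive mouse pluripotency. Sall4 is a zinc-finger transcription factor of the same network, Utf1 is a chromatin-associated protein largely restricted to pluripotent cells, and Lin28a is an RNA-binding protein that blocks maturation of let-7 microRNAs. All are silent or low in fibroblasts, and regulatory DNA of such genes is commonly methylated in somatic cells and loses methylation as reprogramming is completed. CpG-dense promoters often stay unmethylated even where the gene is silent, so the position of a CpG within a locus matters to what its level can show.

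The start regions of Esrrb are shown to mark which promoter CpGs were read, and not every library read the same ones. The 250 bases before each of the 2 RefSeq starts of Esrrb are given 5′ to 3′ on the plus strand, with CpGs read in at least 1 library in capitals. The sequences are from the GRCm38.p6 RefSeq promoter table, and they were placed on the mm9 positions of the deposited files by the spacing and local sequence of their CpGs, at chr12:87701817-87702066 for the distal start and chr12:87762344-87762593 for the internal start.
Esrrb distal start: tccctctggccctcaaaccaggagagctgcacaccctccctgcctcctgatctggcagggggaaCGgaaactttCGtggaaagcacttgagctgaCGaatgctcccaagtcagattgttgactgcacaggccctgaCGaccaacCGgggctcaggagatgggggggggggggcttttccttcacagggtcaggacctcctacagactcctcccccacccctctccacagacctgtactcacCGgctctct
Esrrb internal start: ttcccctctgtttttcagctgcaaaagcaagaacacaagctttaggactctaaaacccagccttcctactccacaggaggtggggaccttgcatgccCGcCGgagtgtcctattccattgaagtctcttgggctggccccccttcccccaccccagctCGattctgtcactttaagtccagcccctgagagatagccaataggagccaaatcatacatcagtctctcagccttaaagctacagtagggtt
The distal window holds 6 CpGs and the internal window 3. CCGG, the palindromic site cut by MspI, the enzyme usual in RRBS, occurs 2 times in the distal window and 1 time in the internal window, and at least 1 such site is present in 47.1% of the 32851 RefSeq promoter windows of this length. The start of Utf1 was placed at position 147129755 of chromosome 7 and that of Lin28a at position 133574731 of chromosome 4. The Utf1 placement rests on only 2 matching CpGs, found by a search within its interval. The Sall4 start was not placed, and no mm9 annotation was used, so tiles are given by coordinates and not as exonic or intronic. Neighbouring genes share these intervals, among them Kndc1 beside Utf1, Atp9a beside Sall4 and Dhdds beside Lin28a.

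On the mean over their tested tiles all 4 loci were less methylated in iPSCs than in MEFs, and no tested tile of any of them was called higher. Of the 23 tested tiles, 13 were lower in XaXa iPSCs than in MEFs, 10 in XO iPSCs and 11 in XY iPSCs (quasi-binomial F test, Benjamini-Hochberg adjusted p below 0.05 over all tested tiles, with the mean levels at least 10 percentage points apart). Among all 42837 tested tiles the share called lower was 60.5% for XaXa minus MEF, 20.3% for XO minus MEF and 22.8% for XY minus MEF, and the share called higher was 0.857%, 5.17% and 4.59%. The median difference of the 23 tiles was -32.1 percentage points for XaXa minus MEF, -7.46 for XO minus MEF and -8.62 for XY minus MEF, against -26.0, -3.39 and -3.24 over all tiles. The 3 comparisons share the MEF libraries, and 10 tiles were called lower in all 3 of them. Without MEF 5 the medians of the 23 tiles were -30.9, -9.18 and -11.1 points in XaXa, XO and XY, against -24.8, -2.64 and -2.66 over all tiles. Fewer tiles were then called lower in XO and XY, among the 23 and genome-wide. With XO 6 as the only XO library the XO median was -10.7 points, against -2.58 over all tiles, and again fewer tiles were called. A fit with 1 library left in a group assumes that it varies like the other libraries. At the minimum of 10 reads, 34 of the 46 tiles were lower in XaXa than in MEFs, 24 in XO and 29 in XY, beside 67.1%, 17% and 19.1% of all 96695 such tiles. At that minimum 1 tile, in Esrrb, was higher in XO and none in XaXa or XY, beside 5.59%, 0.852% and 4.8% of all.

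**Figure D1:**
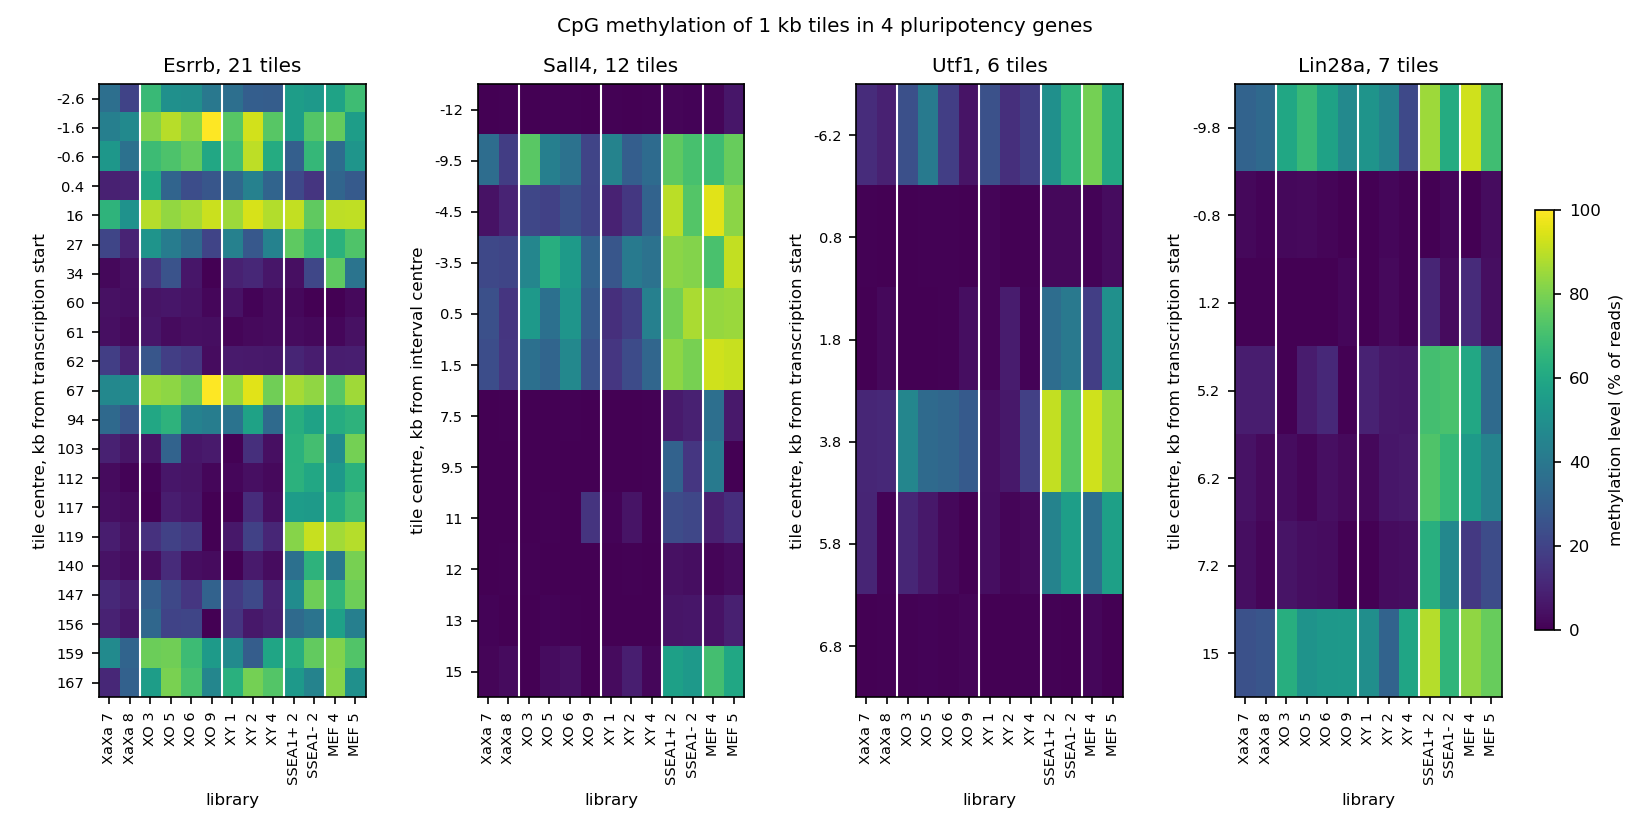
Methylation level (color, percent of reads) of the 46 tiles with at least 10 reads in every library, with 1 row per tile and 1 column per library. Rows run by distance of the tile centre from the transcription start in the direction of transcription (for Esrrb the distal start), or for Sall4 from the interval centre along the plus strand; white lines divide XaXa, XO, XY, SSEA1-sorted and MEF libraries, and many rows are bright in the 4 sorted and MEF columns and dark in the 9 iPSC columns.

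A call needs a difference of 10 points, so a tile under 10% in MEFs could not be called lower than MEFs. Grouping the tested tiles by their mean MEF level, a grouping chosen after the values were seen, 12 tiles had at least 40%, 10 had under 10% and 1 lay between. The 12 methylated tiles averaged 17.2% ± 5.09 in XaXa iPSCs (SD, n = 2), 31.0% ± 6.33 in XO iPSCs (n = 4), 24.6% ± 2.70 in XY iPSCs (n = 3), 73.6% in SSEA1-positive cells, 71.4% in SSEA1-negative cells and 72.1% ± 3.72 in MEFs (n = 2). Lower levels than in MEFs were called at 12 of the 12 in XaXa, 10 in XO and 11 in XY, beside 87.2%, 27.1% and 30.3% of the 27492 tiles of the genome with the same MEF level. Over those 27492 tiles the mean level was 40.7% in XaXa, 66.6% in XO, 65.9% in XY, 77.1% in SSEA1-positive cells, 78.0% in SSEA1-negative cells and 79.3% in MEFs. The 10 tiles under 10% were rich in CpGs, with 18 to 106 read CpGs each against 4 to 34 in the methylated tiles. The tile between, in Sall4, was called lower in XaXa only and is described with that gene. None of the 10 was called in any of the 6 comparisons, where the share of the 11193 tiles of that MEF level called in either direction was 1.57% for XaXa minus MEF, 3.72% for XO minus MEF, 2.59% for XY minus MEF, 2.22% for XaXa minus XO, 1.69% for XaXa minus XY and 0% for XO minus XY.

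Both SSEA1-sorted libraries were closer to MEFs than to XY iPSCs at most tiles that were lower in XY iPSCs than in MEFs. At the 11 tiles that were lower in XY iPSCs than in MEFs, the SSEA1-positive library ran from 44.9% to 90.7% with a median of 75.0%, and the SSEA1-negative library from 56.1% to 91.5% with a median of 70.0%. Each of the 2 libraries was above all 3 XY libraries at 11 of the 11 tiles and nearer to the MEF mean than to the XY mean at all 11. Relative to the 2 MEF libraries, the SSEA1-positive library was below both at 3 tiles, between them at 5 and above both at 3, and the SSEA1-negative library gave the same counts. At the minimum of 10 reads, 29 tiles were lower in XY iPSCs than in MEFs, and each sorted library was nearer to the MEF mean at 27 of them. Relative to the MEF libraries, the SSEA1-positive library was then below both at 12 and above both at 6, and the SSEA1-negative library below both at 11 and above both at 5. The lowest sorted level was 4.17%, in SSEA1-positive cells at the Esrrb tile chr12:87736001-87737000, against 75.0% and 38.3% in MEFs. The iPSC libraries read partly other CpGs. On CpGs read in all 13 libraries, both sorted libraries were still nearer to the MEF mean at the 11 tiles. Not all of the 29 tiles kept this. At the Utf1 tile starting at 147123001, SSEA1-positive cells were then at 42.9% and SSEA1-negative cells at 100%, against 21.4% in XY and 75.1% in MEFs. With 1 library each, no test of these sorted cells was made. Bulk DNA cannot tell a tile unmethylated in some of the cells from one partly methylated in each cell.

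**Figure D2:**
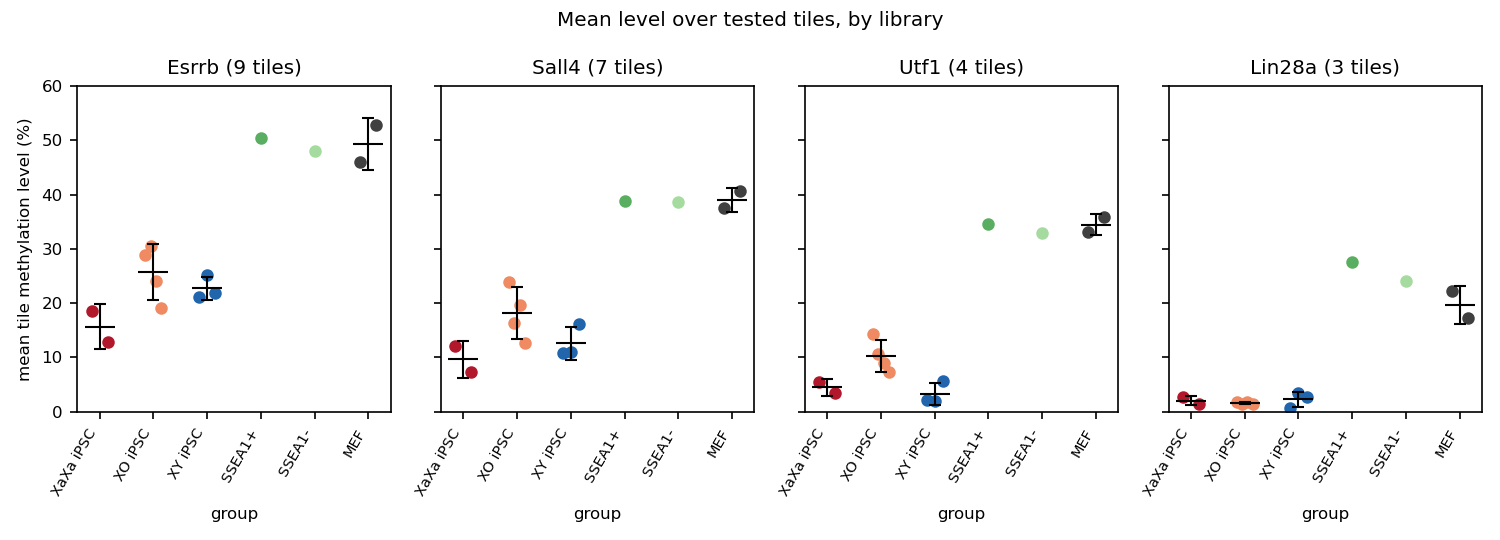
Mean methylation level (percent) over the tested tiles of each gene, with 1 point per library and, where a group has more than 1 library, a bar for the mean and SD. For each gene the iPSC libraries lie below the sorted and MEF libraries without overlap, and the Utf1 XO libraries lie above the XaXa and XY libraries.

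Averaged over its 9 tested tiles, Esrrb was 18.6% and 12.8% methylated in XaXa iPSCs, 28.9%, 30.6%, 24.2% and 19.1% in XO 3, 5, 6 and 9, 21.1%, 25.1% and 21.9% in XY 1, 2 and 4, 50.4% in SSEA1-positive cells, 48.0% in SSEA1-negative cells and 46.0% and 52.8% in MEFs. The XaXa libraries were the lowest 2 of the 13, the XO and XY libraries overlapped, and the sorted and MEF libraries formed a separate range. The difference from MEFs was -33.7 percentage points in XaXa, -23.7 in XO and -26.7 in XY, and each comparison gave the smallest two-sided exact permutation p that its numbers of libraries allow, 0.333, 0.0667 and 0.1. Without MEF 5 the differences were -30.3, -20.3 and -23.3 points, and with XO 6 as the only XO library XO minus MEF was -25.2 points. XaXa was below XO by a difference of -10.0 points (exact permutation p = 0.133) and below XY by -7.04 points (exact permutation p = 0.1, which 3 against 2 libraries cannot go below), so neither passed. XO minus XY was 2.97 points (exact permutation p = 0.371). With XO 6 as the only XO library, XaXa minus XO was -8.47 points and XO minus XY 1.44 points.

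Along Esrrb, iPSCs were lower than MEFs at tested tiles both between the 2 starts and downstream of them, and no call was made at the internal start. The tile with the widest range between groups, chr12:87821001-87822000, lies 119 kb downstream of the distal start. It was 8.12% and 4.56% methylated in the XaXa libraries, 14.4%, 19.3%, 16.3% and 0% in XO 3, 5, 6 and 9, and 6.55%, 19.5% and 10.8% in XY 1, 2 and 4. It was 81.7% in SSEA1-positive cells (95% Wilson interval 72.7% to 88.3%), 91.5% in SSEA1-negative cells (84.1% to 95.6%), and 86.1% and 88.9% in MEFs. The 0% in XO 9 comes from 36 CpG reads, which would allow a level of up to 8.33% if they were independent. The 9 iPSC libraries and the 4 others were far apart, and the difference from MEFs was -81.2 points in XaXa (adjusted p = 2.3e-05), -75.0 in XO (adjusted p = 2.7e-05) and -75.2 in XY (adjusted p = 2.8e-05).

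The neighbouring Esrrb tiles 103 kb and 112 kb downstream of the distal start behaved alike. At chr12:87805001-87806000 the differences from MEFs were -56.5, -51.2 and -57.8 points in XaXa, XO and XY, and at chr12:87814001-87815000 they were -56.6, -55.0 and -55.8 points, all called. The XO call at the tile 103 kb downstream was lost without MEF 5, where the difference was -36.0 points. Smaller differences were called at chr12:87729001-87730000, 27.4 kb downstream, with -53.0, -31.1 and -29.7 points. There the XO call was lost without MEF 5 (-26.8 points) and the XY call without MEF 5 (-25.4 points) or XY 2 (-24.1 points), and with reads not down-weighted (adjusted p = 0.053). At chr12:87796001-87797000, 94.4 kb downstream, XaXa differed by -33.1 points and XY by -20.0 points, and XO by -10.6 points without a call. The XY call at this tile was lost without XY 1, XY 4, MEF 4 or MEF 5, with differences between -21.4 and -15.6 points, and also by limma on log2 ratios (adjusted p = 0.13) and in a fit of the XY and MEF libraries alone (adjusted p = 0.051).

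**Figure D3:**
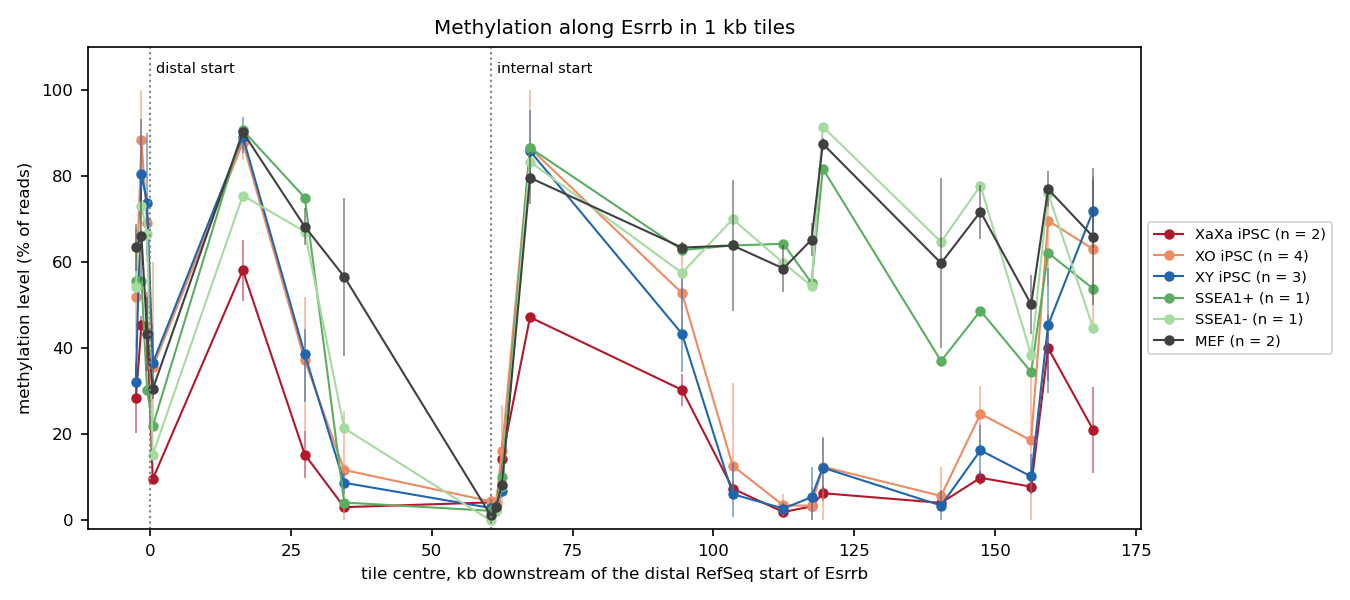
Mean methylation level (percent) of the 21 Esrrb tiles with at least 10 reads in every library against distance in kb from the distal RefSeq start, with 1 line per group and vertical bars from the lowest to the highest library. Dotted lines mark the 2 RefSeq starts; the groups come together at low levels at the internal start, and between 103 and 156 kb the iPSC lines run below those of the sorted cells and MEFs.

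At its internal start Esrrb was close to unmethylated in every group. The start tile, chr12:87762001-87763000, was at 4.20% ± 0.446 in XaXa (SD, n = 2), 4.46% ± 1.96 in XO (n = 4), 2.91% ± 1.94 in XY (n = 3), 2.25% and 0% in SSEA1-positive and SSEA1-negative cells and 1.21% ± 1.71 in MEFs (n = 2). The next tile, chr12:87763001-87764000, was at 3.30% ± 1.12, 4.12% ± 1.36 and 2.33% ± 0.817 in XaXa, XO and XY, 3.08% and 2.22% in the sorted cells and 3.17% ± 1.87 in MEFs. One tile further downstream, chr12:87764001-87765000 was at 18.4% and 9.92% in XaXa, 26.9%, 18.5%, 15.8% and 3.12% in XO 3, 5, 6 and 9, and 7.37%, 6.92% and 6.44% in XY 1, 2 and 4. It was at 10.2% and 8.02% in SSEA1-positive and SSEA1-negative cells, and 8.03% and 8.45% in MEFs. XO 3, 5 and 6 and 1 XaXa library were above every XY, sorted and MEF library. None of these 3 tiles was called in any comparison. The 0% in SSEA1-negative cells comes from 55 CpG reads, which would allow a level of up to 5.45% if they were independent.

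The distal start of Esrrb passed only the minimum of 10 reads, at which single libraries were not left out in turn, and there XaXa stood below the other iPSCs. The start tile, chr12:87702001-87703000, was at 9.23% and 10% in XaXa, 60%, 32.1%, 23.5% and 26.7% in XO 3, 5, 6 and 9, and 33.8%, 43.8% and 32.2% in XY 1, 2 and 4. It was at 22.0% and 15.3% in SSEA1-positive and SSEA1-negative cells, and 32.8% and 28.3% in MEFs. Both XaXa libraries were below all others, with differences of -26.0 points from XO (adjusted p = 0.0032), -27.0 from XY (adjusted p = 0.0055) and -20.9 from MEFs (adjusted p = 0.016). XO and XY differed from MEFs by 5.06 and 6.08 points without a call. The order against the sorted cells and MEFs did not hold on the 2 CpGs of this tile read in all 13 libraries. There the mean level was 9.53% in XaXa, 31.4% in XO, 39.1% in XY, 0% in SSEA1-positive cells, 19.2% in SSEA1-negative cells and 8.14% in MEFs, too few reads for a test. Just upstream, chr12:87701001-87702000 was at 45.3% in XaXa, 69.2% in XO and 73.8% in XY. It was at 30.4% in SSEA1-positive cells, 66.7% in SSEA1-negative cells and 43.4% in MEFs, and neither XO nor XY was called higher than MEFs. One tile further upstream, at chr12:87700001-87701000, XO was higher than MEFs by 22.3 points (adjusted p = 0.032). It was the only tile of the 46 called higher in any comparison at this minimum, where 5.59% of 96695 tiles were called higher in XO than in MEFs. On the 3 CpGs of that Esrrb tile read in all 13 libraries the mean level was 45.4% in XaXa, 88.2% in XO, 80.6% in XY, 41.9% in SSEA1-positive cells, 66.7% in SSEA1-negative cells and 45.8% in MEFs. XaXa was lower there than XO by a difference of -42.9 points (adjusted p = 0.00077) and than XY by -35.0 points (adjusted p = 0.0031).

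Within the printed distal window of Esrrb, the iPSC libraries read only 3 CpGs, at 114, 106 and 9 bases before the start. Pooled over libraries, the level at these CpGs was 8.51%, 23.1% and 13.6% in XaXa, 32.4%, 58.0% and 43.2% in XO and 22.2%, 26.3% and 29.6% in XY. By library the window was at 20.8% and 15.4% in XaXa, 47.4%, 46.4%, 47.0% and 38.9% in XO, and 21.1%, 50% and 31.8% in XY, with only 4 reads behind the 50%. XaXa and XO did not overlap in this window. The sorted cells and MEFs read partly other CpGs of the window with at most 10 reads each and are not compared.

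At 1 tested Esrrb tile, XaXa was lower than the other iPSCs and no call separated XO or XY from MEFs. At chr12:87718001-87719000, 16.4 kb downstream of the distal start, the level was 65.2% and 51.0% in XaXa, 88.9%, 83.9%, 86.6% and 91.9% in XO 3, 5, 6 and 9, and 85.5%, 93.8% and 88.3% in XY 1, 2 and 4. It was 90.7% in SSEA1-positive cells, 75.5% in SSEA1-negative cells and 90.1% and 90.4% in MEFs. Both XaXa libraries were below all others. XaXa differed by -29.7 points from XO (adjusted p = 0.0012), by -31.1 points from XY (adjusted p = 0.0015) and by -32.1 points from MEFs (adjusted p = 0.00088), while XO and XY differed from MEFs by -2.41 and -1.03 points without a call. With 1 library left out, XaXa minus XO lay between -36.8 and -22.6 points and XaXa minus XY between -38.2 and -24.0. XaXa was also called lower than XO at the tiles starting at 87729001 and 87796001, with -27.4 to -16.4 and -26.2 to -18.5 points when 1 library was left out. At 87729001 it was called lower than XY too, with -28.9 to -17.8 points.

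**Figure D4:**
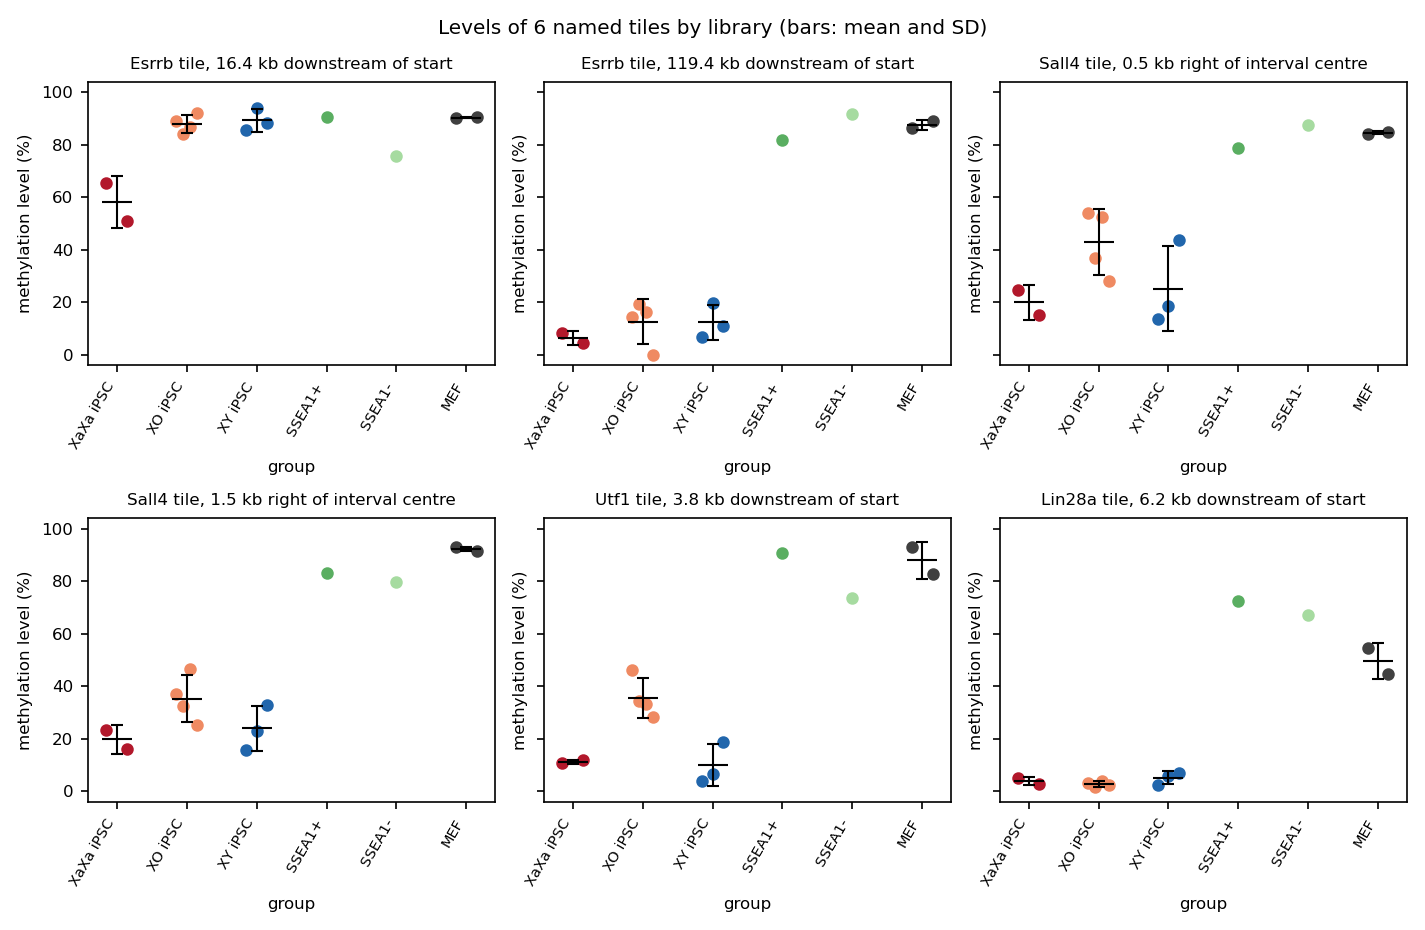
Methylation level (percent) of 6 tiles named in the text, with 1 point per library and a bar for the mean and SD where a group has more than 1 library. In the upper left Esrrb tile XaXa alone is below the remaining groups, and in the Utf1 tile XO lies between the other iPSCs and MEFs.

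Sall4 averaged 12.1% and 7.25% in XaXa iPSCs over its 7 tested tiles, 23.8%, 16.4%, 19.7% and 12.7% in XO 3, 5, 6 and 9, 10.8%, 11% and 16.1% in XY 1, 2 and 4, 38.9% and 38.6% in SSEA1-positive and SSEA1-negative cells and 37.5% and 40.6% in MEFs. The XaXa and XY libraries overlapped, as did XO and XY, and the sorted cells lay within the MEF range. The difference from MEFs was -29.4 points in XaXa, -20.9 in XO and -26.4 in XY. Without MEF 5 it was -27.8, -19.3 and -24.9 points, and with XO 6 as the only XO library XO minus MEF was -19.3 points. XaXa minus XO was -8.48 points (exact permutation p = 0.133) and XO minus XY was 5.51 points (exact permutation p = 0.114). With XO 6 as the only XO library these differences were -10.0 and 7.08 points.

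Within the Sall4 interval, the 3 tested tiles called lower than MEFs in every iPSC group lay between 168570001 and 168582000. The tested tile before them, chr2:168567001-168568000, held 106 read CpGs and had no call. Its mean level was 0.253% in XaXa, 0.408% in XO, 0.343% in XY and 3.80% in MEFs. At chr2:168581001-168582000 the level was 23.5% and 15.9% in XaXa, 37.0%, 32.5%, 46.5% and 25% in XO 3, 5, 6 and 9, and 15.7%, 22.9% and 33.0% in XY 1, 2 and 4. It was 83.1% in SSEA1-positive cells (95% Wilson interval 72.2% to 90.3%), 79.6% in SSEA1-negative cells (74.2% to 84.1%) and 92.9% and 91.5% in MEFs. The differences from MEFs were -72.5 points in XaXa (adjusted p = 2.8e-05), -56.9 in XO (adjusted p = 8.5e-05) and -68.3 in XY (adjusted p = 4.2e-05). Every iPSC library was below every sorted and MEF library, and none of them was under 15%.

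The adjoining Sall4 tile, chr2:168580001-168581000, was at 24.6% and 15.2% in XaXa, 53.9%, 36.9%, 52.3% and 28.1% in XO 3, 5, 6 and 9, 13.5%, 18.3% and 43.5% in XY 1, 2 and 4, 78.7% and 87.4% in SSEA1-positive and SSEA1-negative cells, and 84.1% and 84.9% in MEFs. It differed from MEFs by -64.6, -41.7 and -59.4 points in XaXa, XO and XY, and the XO call was lost without MEF 5 (-41.3 points) and without XO 3, 5 and 9 (-32.2 points). XaXa was also lower than XO, by -22.9 points here (adjusted p = 0.018) and by -15.6 points at the tile starting at 168581001 (adjusted p = 0.021). Both calls were lost without XaXa 8, with -18.2 and -11.8 points, and without XO 6, with -19.7 and -11.9 points, and both by limma on log2 ratios (adjusted p = 0.051 and 0.07). At chr2:168570001-168571000 the called differences from MEFs were -45.8, -28.8 and -36.3 points. There the XY call was lost without MEF 5 (-32.4 points), and the XO call without XO 5, XO 6, XO 9, MEF 4 or MEF 5, with -32.6 to -21.1 points, by limma on log2 ratios (adjusted p = 0.085) and in a fit of the XO and MEF libraries alone (adjusted p = 0.069).

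At higher coordinates of the Sall4 interval the described tiles, from 168587001 to 168595000, were nearly free of methylation in iPSCs. Tiles beyond these had too few reads to be described. In the 5 described tiles from 168587001 to 168593000 of chromosome 2, the iPSC libraries were between 0% and 5.26% except XO 9 at 15% in the tile starting at 168590001, which rests on 20 reads. That Sall4 tile was at 23.2% and 21.4% in SSEA1-positive and SSEA1-negative cells and 8.89% and 12.9% in MEFs, and XaXa minus MEF was -10.8 points (adjusted p = 0.039), a call lost without XaXa 7, XaXa 8, MEF 4 or MEF 5, with -12.8 to -8.78 points. At chr2:168591001-168592000 every library, MEFs included, was at or below 4.62%. At chr2:168594001-168595000, which passed only the minimum of 10 reads, the level was 1.47% and 2.95% in XaXa, 0% to 4.42% in XO, 1.65% to 8.33% in XY, 56.8% and 53.9% in SSEA1-positive and SSEA1-negative cells, and 70.2% and 59.6% in MEFs. The difference from MEFs at this tile was -62.7 points in XaXa (adjusted p = 1.7e-05), -63.0 in XO (adjusted p = 1.2e-05) and -60.6 in XY (adjusted p = 2.1e-05).

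Utf1 averaged 5.52% and 3.39% in XaXa iPSCs over its 4 tested tiles, 14.3%, 10.6%, 9.0% and 7.39% in XO 3, 5, 6 and 9, 2.22%, 1.99% and 5.58% in XY 1, 2 and 4, 34.6% and 33.0% in SSEA1-positive and SSEA1-negative cells and 33.0% and 35.8% in MEFs. XaXa and XY overlapped, XO lay above both, and the SSEA1-positive library was within the MEF range while the SSEA1-negative library was just under it. The difference from MEFs was -30.0 points in XaXa, -24.1 in XO and -31.2 in XY. Without MEF 5 it was -28.6, -22.7 and -29.8 points, and with XO 6 as the only XO library XO minus MEF was -25.4 points. XO minus XY was 7.05 points (two-sided exact permutation p = 0.0286, the smallest possible with these libraries and unadjusted for the 24 gene-level comparisons). The p was 0.0857 at the minimum of 10 reads and 0.0571 with only CpGs read in all 13 libraries. It was 0.25 with XO 6 as the only XO library, which is the smallest possible there.

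The Utf1 difference between iPSC groups lay mostly in 1 tile of 4 CpGs. That tile, chr7:147133001-147134000, lies 3.75 kb downstream of the placed start and was at 10.7% and 11.7% in XaXa, 46.0%, 34.5%, 33.0% and 28.1% in XO 3, 5, 6 and 9, and 4.0%, 6.58% and 18.9% in XY 1, 2 and 4. It was at 90.7% in SSEA1-positive cells (95% Wilson interval 78.4% to 96.3%), 73.7% in SSEA1-negative cells (61% to 83.4%) and 92.9% and 82.9% in MEFs. XO overlapped neither the other iPSCs nor MEFs. The differences from MEFs were -76.6 points in XaXa (adjusted p = 2.9e-05), -52.4 in XO (adjusted p = 0.00033) and -78.0 in XY (adjusted p = 3.6e-05). XaXa was lower than XO by -24.2 points (adjusted p = 0.0027), and XO minus XY was 25.6 points without passing (adjusted p = 0.56). With 1 library left out, XaXa minus XO lay between -26.6 and -20.7 points. With only the 2 CpGs read in all 13 libraries, the mean level at this Utf1 tile was 11.5% in XaXa, 38.3% in XO, 10.2% in XY and 88.7% in MEFs.

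Among the other 3 tested Utf1 tiles, 1 was lower in each iPSC group than in MEFs. At chr7:147135001-147136000, 5.75 kb downstream, the differences from MEFs were -40.9 points in XaXa (adjusted p = 0.00025), -41.8 in XO (adjusted p = 0.00024) and -44.1 in XY (adjusted p = 0.00017). At the minimum of 10 reads 4 of 6 Utf1 tiles were lower in each iPSC group. The 2 further tiles were chr7:147123001-147124000, with -58.8, -47.4 and -51.0 points in XaXa, XO and XY, and chr7:147131001-147132000, with -33.3, -33.3 and -31.1 points. The window around the Utf1 start itself had 2 reads in 1 library and none in the others, so the start was not measured. The tile beside the start, chr7:147130001-147131000, held 46 read CpGs and was at or below 3.36% in all 13 libraries. Its level was 0.542% ± 0.250 in XaXa (SD, n = 2), 0.251% ± 0.299 in XO (n = 4), 0.595% ± 0.599 in XY (n = 3), 2.0% and 2.01% in SSEA1-positive and SSEA1-negative cells and 2.26% ± 1.55 in MEFs (n = 2), with no call.

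Over its 3 tested tiles, Lin28a averaged 2.63% and 1.44% in XaXa, 1.77%, 1.37%, 1.84% and 1.39% in XO 3, 5, 6 and 9, 0.741%, 3.43% and 2.74% in XY 1, 2 and 4, 27.6% and 24.0% in SSEA1-positive and SSEA1-negative cells, and 22.2% and 17.2% in MEFs. The iPSC groups overlapped, and both sorted libraries were above both MEF libraries. The difference from MEFs was -17.7 points in XaXa, -18.1 in XO and -17.4 in XY. Without MEF 5 it was -20.2, -20.6 and -19.9 points, and with XO 6 as the only XO library XO minus MEF was -17.9 points.

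Of the 3 tested Lin28a tiles 1 was called lower in each iPSC group, and of the 7 at the minimum of 10 reads, 5 were called lower in XaXa, 3 in XO and 5 in XY. At chr4:133568001-133569000, 6.23 kb downstream of the start, the level was 5.03% and 2.72% in XaXa, 3.19%, 1.5%, 3.99% and 2.50% in XO 3, 5, 6 and 9, and 2.22%, 5.88% and 7.0% in XY 1, 2 and 4. It was 72.5% in SSEA1-positive cells (95% Wilson interval 65.0% to 79.0%), 67.1% in SSEA1-negative cells (55.7% to 76.8%), and 54.4% and 44.7% in MEFs. All 9 iPSC libraries were at or below 7.0%, and the sorted cells were above both MEF libraries. The differences from MEFs were -45.6 points in XaXa (adjusted p = 0.00011), -46.7 in XO (adjusted p = 9.5e-05) and -44.5 in XY (adjusted p = 0.00021).

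Beside the Lin28a start, levels were low in all groups. The upstream tile, chr4:133575001-133576000, was between 0% and 3.38% in the 13 libraries, and the downstream tile, chr4:133573001-133574000, was between 0% and 2.56% in iPSCs, 10.3% and 3.05% in SSEA1-positive and SSEA1-negative cells, and 12.2% and 3.66% in MEFs. Neither was called in any comparison. At chr4:133559001-133560000, 15.2 kb downstream and read at the minimum of 10, XaXa was at 24.6% and 26.4%, below XO at 51.3% to 62.8% and XY at 31.8% to 58.7%. XaXa differed there by -29.8 points from XO (adjusted p = 0.0028) and by -21.1 points from XY (adjusted p = 0.011).

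Among iPSCs, XaXa was less methylated than XO at 6 of the 23 tiles and less than XY at 2, and higher at none, while 59.1% and 52.7% of all tested tiles were lower and 0.014% and 0.105% higher. The median difference at the 23 tiles was -1.53 points for XaXa minus XO and -0.09 for XaXa minus XY, against -20.8 and -18.8 points over all tiles. Among the 12 tiles methylated in MEFs the same 6 and 2 were called, beside 86.6% and 78.1% of the 27492 tiles of that class. Several of the remaining tiles were already low in XO and XY, such as the Esrrb tile starting at 87814001, the Utf1 tile starting at 147135001 and the Lin28a tile starting at 133568001. Without XaXa 8, the deepest library, the medians at the 23 tiles were -0.451 and -0.032 points, against -15.4 and -13.9 over all tiles. Fewer tiles were then called in both comparisons, among the 23 and genome-wide. Most of the XaXa minus XO calls were lost, in Sall4 and elsewhere. With XO 6 as the only XO library, the XaXa minus XO median was -0.731 points, against -21.9 over all tiles. At the minimum of 10 reads XaXa was lower than XO at 19 of 46 tiles and lower than XY at 8, where 72.3% and 65.6% of 96695 tiles were lower and 0.0134% and 0.104% higher.

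No call separated XO from XY iPSCs at any tile of the 4 genes. Without a call, their libraries did not overlap at the Utf1 tile starting at 147133001. The same held, at the minimum of 10 reads, for the Esrrb tile starting at 87699001. At the Utf1 tile starting at 147136001 they were apart only by 0.394% in XO 3 against 0.392% in XY 4. How often XO and XY libraries separate over all tiles was not counted, so no conclusion is drawn from these tiles. None of the 23 tiles was called, nor any of the 46 at the minimum of 10 reads, where 0.00103% of all tiles were lower and 0% higher. None of all 42837 tiles was called either, with 2035 tiles at an unadjusted p below 0.05 in the quasi-binomial fit and no calls by limma on log2 ratios, where 2602 had such a p. The median XO minus XY difference was 0.734 points at the 23 tiles and 0.241 over all tiles.

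Read coverage limits the comparison of iPSCs with MEFs, because the libraries did not read the same CpGs. Of the 1307 CpGs, 958 were read in an iPSC library, 1015 in a sorted or MEF library and 666, or 51.0%, in both kinds, and 264 were read in all 13. With reads restricted to those 264 CpGs, 26 of the 42 called differences could be tested again and 26 were called again in the same direction. The 3 Sall4 tiles called in every iPSC group, and the Esrrb tile starting at 87729001, had too few shared reads for this. On their shared CpGs each iPSC group mean was below the MEF mean, which was not tested. Over the Sall4 tiles that still passed, the mean differences from MEFs were only -6.12, -4.92 and -5.58 points in XaXa, XO and XY. At chr12:87764001-87765000, just downstream of the internal start of Esrrb, 5 CpGs gave 605 to 1490 reads each in the sorted and MEF libraries, and 3 of them had none in any iPSC library.

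Among 34 other pluripotency genes, 15 had a promoter that could be placed and 6 had tested start tiles, 8 tiles in all. Of these 8, 1 was lower in iPSCs than in MEFs and none was higher. It was that of Zfp42, a zinc-finger gene used as a marker of pluripotent cells, at 1.25% in XaXa, 2.30% in XO, 3.65% in XY and 54.4% in MEFs (adjusted p = 3.4e-05, 3.4e-05 and 5.9e-05 for XaXa, XO and XY minus MEF). Within the Zfp42 promoter window MEF 4 had 2 reads, and MEF 5 and the sorted libraries had 0. The MEF level of the tile therefore comes almost wholly from CpGs outside that window, and the window itself could not be compared with MEFs. The median difference of the 8 tiles was -1.15, -1.21 and -1.03 points for XaXa, XO and XY minus MEF, against -26.0, -3.39 and -3.24 over all tiles. Of all tested tiles, 60.5%, 20.3% and 22.8% were called lower in XaXa, XO and XY than in MEFs, and 0.857%, 5.17% and 4.59% higher. The start tiles other than that of Zfp42 were at or below 4.64% in MEFs, so they could not be called lower than MEFs. The promoter window of Pou5f1, which encodes Oct4, was at 0% and 0.906% in XaXa, 71.4%, 26.7%, 0% and 0% in XO 3, 5, 6 and 9, 0%, 9.68% and 0% in XY, 66.7% and 100% in SSEA1-positive and SSEA1-negative cells, and 66.7% and 52.4% in MEFs, with 6 to 331 reads per library. XO 3 was above both MEF libraries at this window. Without XO 3, 10 tiles of the 4 genes were lower in XO than in MEFs and 6 lower in XaXa than in XO, the same counts as with it. Of 18 fibroblast genes, which mark MEFs and feeder cells, 3 had tested start tiles, and none was called in any comparison. Those 3 tiles were between 0.306% and 7.35% in MEFs, so they could not be called lower than MEFs.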

How the data were processed

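The deposited files, 1 per library, list CpGs with total and methylated read counts, their ratio as a fraction, and 5 bases of local sequence; per the submitters' processing notes reads were aligned to mm9 with BSMAP, and the version is not given in the sources used here. The members and lists were chosen with earlier results of these data known. Levels were computed from the counts, never from the deposited fraction, which matched them. Start positions were written 1-based. Tiles were tested where every one of the 13 libraries had 20 or more reads (alternatives 10 and 50). The 11 XaXa, XO, XY and MEF libraries were fitted together in R 4.3.3 by a quasi-binomial model that gives each group its mean, with dispersion moderated by limma 3.58.1 and kept at 1 or above, and p-values were adjusted over all tiles. Reads were down-weighted by a between-library correlation of 0.0195 estimated over all tiles, a change made after an unweighted fit gave false calls on simulated data. A tile was called at an adjusted p below 0.05 and a difference in mean library level of at least 10 percentage points. Gene means over tiles were compared by exact two-sided permutation tests over libraries (Python 3.11.15, scipy 1.17.1). An alternative fit used limma on log2 ratios of methylated to unmethylated reads, with a pseudocount of 1. Named tiles were those at or beside a start, those with the largest called difference in each comparison and the one with the widest range between groups, per gene; other tiles named were chosen after their values were seen. RefSeq promoter sequences (GRCm38.p6) were placed by CpG spacing, needing 3 matching CpGs on the chromosome, or 2 within the interval for Utf1. Wilson intervals (95%) and limits from a count of 0 (3 counts) cover counting error only. They treat CpG reads as independent, although 1 sequenced read can cover several CpGs, so they are too narrow. No libraries were duplicates.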

Additional observations from a re-analysis of the deposited data

Results flagged for a closer look

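In the 4 XO libraries, 3 of 27 tile and gene values had 1 library far from the others by Dixon's test at the 95% level, which flags about 1 in 20 groups by chance. At the Sall4 tile starting at 168590001 of chromosome 2, XO 9 was at 15% and the other XO libraries between 0% and 0.730%; XO 9 had 20 reads there. At the Lin28a tile starting at 133573001 of chromosome 4, XO 9 was at 1.67% and the others between 0% and 0.219%. At the Esrrb tile starting at 87805001 of chromosome 12, XO 5 was at 32.0% and the others between 5.41% and 7.41%.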

How the results depend on the processing

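Of the 42 called differences at single tiles of the 4 genes, 0 reversed under any alternative and 13 lost the call without at least 1 library, 4 by limma on log2 ratios, 2 in the fit over the 2 groups compared and 1 with reads not down-weighted. In the order XaXa minus MEF, XO minus MEF, XY minus MEF, XaXa minus XO, XaXa minus XY, the tiles called of the 4 genes were 34, 25, 29, 19 and 8 of 46 at a minimum of 10 reads. At 50 reads they were 2, 2, 2, 1 and 0 of 9. With only CpGs read in all 13 libraries, where fewer tiles pass, XO minus MEF had 6, XY minus MEF 7, XaXa minus XO 3 and XaXa minus XY 1. Leaving out 1 library gave 12 to 13, 7 to 10, 8 to 10, 2 to 8 and 1 to 2, the lowest of the last 2 ranges without XaXa 8. Genome-wide, in the same order and then XO minus XY, the tiles called were 65672, 21816, 23092, 69911, 63540 and 1 at 10 reads, and 3381, 1639, 1880, 2596 and 2243 for the first 5 comparisons at 50 reads. They were 16266, 6246, 6807, 15824 and 14147 for the CpGs read in all libraries. Leaving out 1 library gave 20385 to 26226, 6359 to 10915, 7003 to 10910, 12989 to 26317, 10740 to 22552 and 0 to 2. XO minus MEF had 6962 without XO 3, 5 and 9, and XO minus XY had 171 with reads not down-weighted. The mean Esrrb difference from MEFs reversed to 2.93 points in XO and 0.41 in XY when the reads of all tiles were pooled, where the deeply read tile beside the internal start outweighs the rest. Small gene-level differences also reversed, and the cause was not tested: Esrrb XaXa minus XY to 2.17 at 50 reads, Utf1 XaXa minus XY to -0.887 at 10 reads, Lin28a XaXa minus XO to -7.28 at 10 reads and -0.154 to 1.04 over libraries left out, Lin28a XaXa minus XY to -1.05 to 0.328 over libraries left out, and Lin28a XO minus XY to 3.33 at 10 reads. Utf1 XO minus XY missed its threshold at 10 reads (4.93), 50 reads (0.687), with common CpGs (8.11), without XO 3, 5 and 9 (5.74) and with each library left out (5.74 to 8.21); in the last 2 cases the number of libraries cannot give a smaller p. No paired analysis was possible because the groups compared share fewer than 2 replicate numbers. The depth of XO 9, with the fewest reads, limits how many tiles could be tested.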
